A study of Rattus norvegicus with 24 samples.

Results

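Transcript levels in the ventral tegmental area (VTA) were set against those in the nucleus accumbens (NAC) of adult rats whose fathers had taken saline. The libraries were chosen by their titles alone, which gave 12 of the study's 24 libraries: 5 from VTA and 7 from NAC of saline-sired (SAL-sired) offspring. By the labels the offspring were first-generation males of at least 60 days of age, and their fathers had been able to self-administer saline over 60 days. Each library came from punches of both sides of the brain. The labels give no strain and no treatment of the offspring themselves, name neither animal nor litter, and leave it unstated whether 1 rat gave tissue of both regions. P-values therefore measure the spread between these libraries, which may in part be technical. The other 12 libraries, 7 from NAC and 5 from VTA of morphine-sired (MOR-sired) offspring, share no library with this comparison and were used only to read each region difference again.

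The VTA is a midbrain region that holds dopamine neurons together with GABA and glutamate neurons. Its dopamine neurons project to the NAC, the ventral part of the striatum, where most neurons are GABA-releasing projection neurons that carry either D1 or D2 dopamine receptors. Dopamine is made from tyrosine by tyrosine hydroxylase and aromatic amino acid decarboxylase, packed into vesicles by the vesicular monoamine transporter and taken back up by the dopamine transporter. Because the 2 regions derive from different parts of the embryonic brain, their neurons also keep different sets of transcription factors.

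Levels are given as TMM-scaled CPM (counts per 1e6), a scale set over the 12 libraries, and log2 fold changes are VTA over NAC throughout. By the name of the tables, the deposited estimated counts were scaled from TPM, a measure per transcript length, so levels can be compared between genes per length, but they are not numbers of reads and no counting interval was given. Library totals, in units of 1e6 counts, ran from 21.86 to 41.27 in NAC and from 25.16 to 41.52 in VTA. Of 37403 genes, 19253 were kept for the test, and edgeR's quasi-likelihood test passed 12048 of them (62.6%) at an adjusted p under 0.05, 5883 higher in VTA (30.6%) and 6165 lower in VTA (32%). A stricter rule, which also asked for a difference of at least 4-fold, passed 1230 genes (6.39%), 468 higher (2.43%) and 762 lower (3.96%). All VTA libraries lay on one side of all NAC libraries in 8380 genes (43.5%). Correlations of log2 CPM across genes ran from 0.952 to 0.967 within NAC, from 0.946 to 0.967 within VTA and from 0.879 to 0.906 between regions. Region coincides with the deposited table, so a difference in handling between the 2 tables cannot be told apart from region. In bulk tissue, fewer cells of a type and less RNA per cell cannot be told apart either.

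Several libraries stood apart within their region. SAL-sired VTA 5 held the X-inactivation transcript Xist at 79.2 CPM and the Y-linked Ddx3y at 0.0759 CPM, against 0 to 0.231 and 30.2 to 54.9 CPM in the other 11, which goes against the male label of that library. Without it 11672 genes passed, and 1214 of the 1230 genes at 4-fold passed in the same direction, while 1, the unnamed locus LOC134484082, passed in the opposite direction (3.30 with VTA 5, −0.94 without it). VTA 2 had the highest VTA sum of forebrain transcription factors (120.4 CPM, against 63.2 to 73.5 in the other VTA libraries). The VTA sum of cortical neuron genes was highest in VTA 5. The list members Slc17a7, Tbr1 and Camk2a were, however, highest in VTA 2 and lowest in VTA 5 among the VTA libraries. VTA 3 had the highest VTA sum of forebrain interneuron genes. VTA 1 held the most meningeal transcripts of the VTA libraries. NAC 3, 5 and 7 were the richest in striatal projection neuron transcripts. Values without the library concerned stand beside each passing gene whose difference is given and moved by more than 1.5 times when that library was left out.

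Each of the 6 region markers separated all VTA libraries from all NAC libraries, although Slc17a7, high in NAC, marks cortical rather than striatal neurons. Th, the rate-limiting enzyme of dopamine synthesis, stood at 2214, 1675, 1215, 1457 and 2870 CPM in VTA 1 to 5 and at 0.753 to 1.91 CPM (median 1.29) in NAC, 1482-fold higher in VTA (95% interval 931 to 2359, adjusted p = 1.51e-10). The dopamine transporter Slc6a3 stood at 1735, 1297, 822, 1168 and 2109 CPM in VTA and at 0.235 to 0.686 CPM (median 0.407) in NAC, 3149-fold higher (95% interval 1926 to 5150.3, adjusted p = 1.45e-10). VTA 5 and 1 were highest and VTA 3 lowest in both genes, and the regions were far from overlapping. Drd1, the dopamine receptor of direct-pathway projection neurons, stood at 1.58, 1.49, 1.46, 1.42 and 1.24 CPM in VTA and at 59.8 to 177 CPM (median 70.9) in NAC, 71.3-fold higher in NAC (95% interval 39.0 to 130.5, adjusted p = 4.76e-08). Adora2a, the adenosine receptor of indirect-pathway neurons, stood at 3.59, 3.2, 4.33, 3.40 and 3.01 CPM in VTA and at 62.7 to 297 CPM (median 100.1) in NAC, 42.6-fold higher in NAC (95% interval 20.2 to 89.7, adjusted p = 8.7e-07). NAC 3, 7 and 5 were highest in both receptors.

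The 2 vesicular glutamate transporters divided by region. Slc17a7, the transporter of cortical glutamate neurons, stood at 14.5, 80.7, 1.02, 2.24 and 0.506 CPM in VTA and at 592 to 1314 CPM (median 1067) in NAC, a log2 fold change of −5.62 (SE 1.15, adjusted p = 0.000945) that became −7.80 without VTA 2. Slc17a6, the transporter of subcortical glutamate neurons, stood at 29.5, 49.9, 122, 119 and 32.8 CPM in VTA and at 5.32 to 13.0 CPM (median 9.14) in NAC, 7.78-fold higher in VTA (95% interval 4.24 to 14.3, adjusted p = 2.83e-05). VTA 3 and 4, the lowest VTA libraries in Th and Slc6a3, were the highest in Slc17a6. NAC 3, 5 and 7 were the lowest NAC libraries in Slc17a7, at 592, 794 and 621 CPM, while being the highest in Drd1 and Adora2a.

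**Figure D1:**
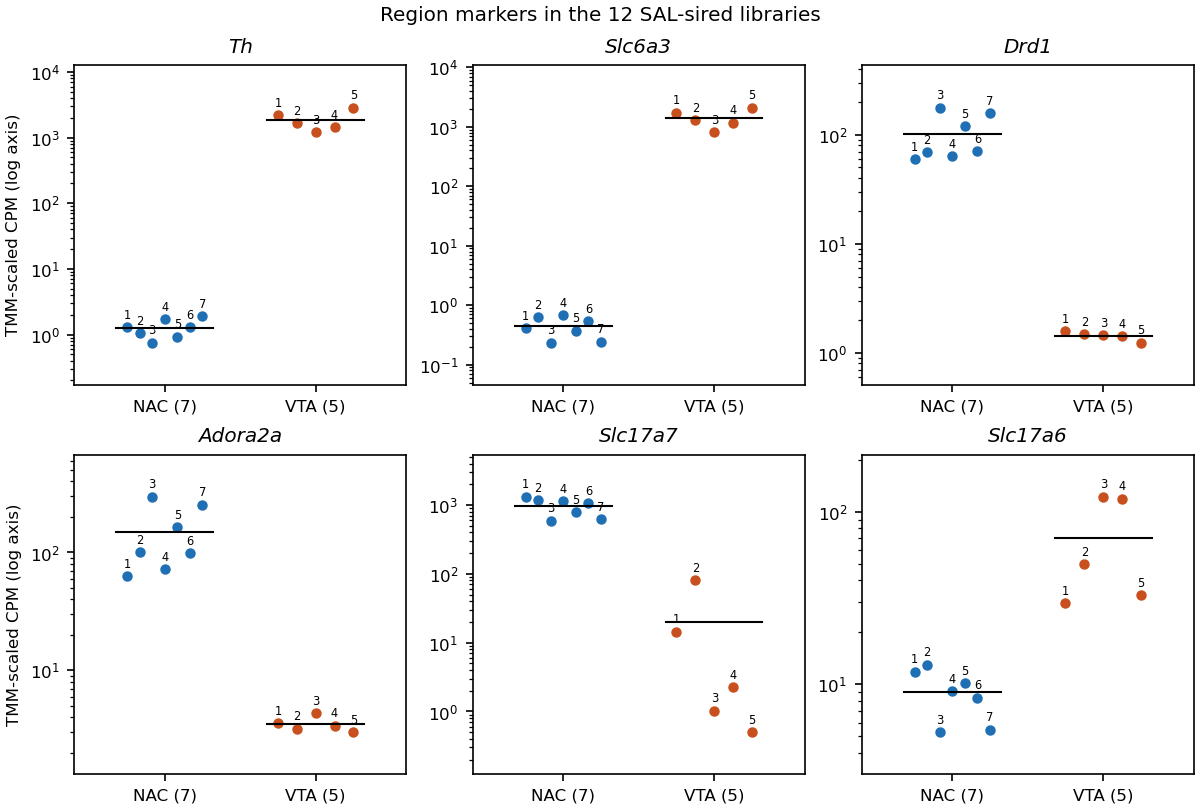
Level of the 6 region markers in each of the 12 libraries (TMM-scaled CPM, log axis; points are libraries with their replicate number, horizontal lines are group means). Th and Slc6a3 lay at or above 822 CPM in all 5 VTA libraries and at or below 1.91 CPM in all 7 NAC libraries, and the Slc17a7 points of VTA spread from 0.506 to 80.7 CPM.

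Genes of dopamine synthesis, packaging and uptake were mostly higher in VTA. Of 13 members, 11 were higher in VTA, against 30.6% of all genes tested, 6 of them at 4-fold or more, 1 was lower and 1 did not pass. The list median was 1.99 on the log2 scale, against 0.02 over all genes tested, and the list summed to between 4455 and 8496 CPM in VTA and between 660.3 and 720.3 CPM in NAC. Ddc, the decarboxylase that makes dopamine, stood at 764, 601, 396, 452 and 877 CPM in VTA and at 4.74 to 8.89 CPM (median 6.25) in NAC, 95.5-fold higher in VTA (95% interval 67.1 to 136, adjusted p = 5.14e-10). Slc18a2, the vesicular monoamine transporter, stood at 635, 519, 303, 347 and 707 CPM in VTA and at 4.26 to 5.44 CPM (median 4.89) in NAC, 103-fold higher (95% interval 72.9 to 146, adjusted p = 3.91e-10). Both ranked the VTA libraries as Th did, with VTA 5 highest and VTA 3 lowest. Slc10a4, a vesicle protein of monoamine neurons, was also higher (log2 fold change 4.64, SE 0.36).

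Tyrosine hydroxylase needs tetrahydrobiopterin as a cofactor, and its genes differed by very different amounts. Gch1, the first enzyme of that synthesis, stood at 93.3, 92.9, 45.2, 67.7 and 126 CPM in VTA and at 0.296 to 1.23 CPM (median 0.850) in NAC, 113-fold higher (95% interval 68.6 to 187). Its feedback regulator Gchfr stood at 12.8, 21.1, 13.0, 17.6 and 26.9 CPM in VTA and at 3.08 to 7.68 CPM (median 4.05) in NAC (log2 fold change 1.99, SE 0.24). Pts and Spr, the enzymes that follow, and Qdpr, which regenerates the cofactor, were higher by log2 fold changes of 0.81, 0.45 and 1.25. Qdpr was abundant in both regions, ranging from 936 to 1202 CPM in VTA and from 374 to 465 CPM in NAC and the regions did not overlap. Of the breakdown enzymes, Maoa was higher in VTA (log2 fold change 0.65, SE 0.0722) and Maob did not pass (VTA to NAC ratio 1.03, 95% interval 0.914 to 1.16, adjusted p = 0.636).

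The 250 bases before the annotated start of Th, Slc18a2 and Ddc are shown because these genes set the dopamine pathway apart between the regions and their promoters hold short motifs named for known factors. The sequences are RefSeq promoters of assembly GRCr8, written 5′ to 3′ on the strand of the gene. Capitals mark the cAMP response element TGACGTCA in Th and Slc18a2, and the nuclear receptor half-site AAAGGTCA, read on the other strand as TGACCTTT, in Ddc.
Th (chr1:207508219-207508468, minus strand): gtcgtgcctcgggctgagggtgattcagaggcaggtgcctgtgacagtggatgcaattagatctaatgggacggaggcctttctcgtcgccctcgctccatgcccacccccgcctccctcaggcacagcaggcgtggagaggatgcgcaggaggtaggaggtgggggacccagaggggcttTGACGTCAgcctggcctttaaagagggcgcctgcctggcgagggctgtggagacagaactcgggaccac
Slc18a2 (chr1:268399771-268400020, plus strand): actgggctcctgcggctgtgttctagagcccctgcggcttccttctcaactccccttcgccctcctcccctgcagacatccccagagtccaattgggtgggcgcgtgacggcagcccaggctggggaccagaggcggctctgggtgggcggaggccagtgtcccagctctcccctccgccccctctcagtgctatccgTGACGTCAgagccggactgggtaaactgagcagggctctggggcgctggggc
Ddc (chr14:90682784-90683033, minus strand): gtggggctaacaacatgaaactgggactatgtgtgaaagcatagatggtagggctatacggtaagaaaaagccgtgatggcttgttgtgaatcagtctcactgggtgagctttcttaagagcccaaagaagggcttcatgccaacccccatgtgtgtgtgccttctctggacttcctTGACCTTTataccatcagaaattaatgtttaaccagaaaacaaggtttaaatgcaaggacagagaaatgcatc
The element begins 69 bases before the start in Th and 52 bases before it in Slc18a2, and the half-site begins 73 bases before the start in Ddc. Searched on both strands, TGACGTCA was found in 2 of the 12 list members with a promoter in the table and in 1.7% of all 27457 promoters, and AAAGGTCA in 1 of the 12 and in 1.11% of all. The motif TAATCC, named for the PITX factors, was in 0 of the 12 and in 6.33% of all promoters. Such matches describe the letters of the promoters only. Among genes at 4-fold higher in VTA, TGACGTCA was in 0.836% of 359 promoters, against 2.4% of the 15200 promoters of tested genes.

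Transcription factors of midbrain dopamine neurons had the highest list median of the 52 lists. Of 12 members, 10 were higher in VTA, against 30.6% of all genes tested. At 4-fold or more, 9 were higher, against 2.43% of all genes, and the median log2 fold change was 7.5. En1, an engrailed homeobox factor of the midbrain, stood at 124, 105, 59.0, 74.9 and 139.8 CPM in VTA and at 0 to 0.0941 CPM (median 0.05) in NAC. Lmx1b, a LIM homeobox factor, stood at 32.0, 21.9, 21.0, 26.7 and 34.5 CPM in VTA and at 0 in each NAC library except NAC 7, at 0.0406 CPM. Too few counts lay behind the NAC values of these genes, and of En2, Foxa2 and Pou4f1, for a fold to be given. Foxa1, a forkhead factor of the ventral midbrain, stood at 29.1, 23.9, 24.6, 30.2 and 34.0 CPM in VTA and at 0 to 0.325 CPM (median 0.108) in NAC. Foxa2, its relative, stood at 14.1, 11.7, 11.0, 13.0 and 16.1 CPM in VTA and was at 0 in 5 NAC libraries, with at most 0.163 CPM in NAC 7.

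Pitx3, needed for the survival of midbrain dopamine neurons, stood at 53.5, 31.1, 24.4, 34.9 and 62.8 CPM in VTA and at 0.148 to 0.759 CPM (median 0.188) in NAC, 154-fold higher in VTA (95% interval 84.9 to 279, adjusted p = 1.09e-08). Lmx1a, which specifies these neurons, stood at 15.1, 13.4, 18.1, 28.1 and 17.6 CPM in VTA and at 0 to 0.325 CPM (median 0.0741) in NAC. Unlike Pitx3 and En1, which were highest in VTA 5, Lmx1a was highest in VTA 4. Otx2, a homeobox factor of VTA dopamine neurons, stood at 6.48, 6.14, 7.23, 6.76 and 7.74 CPM in VTA and at 0.481 to 1.54 CPM (median 0.675) in NAC (8.17-fold higher, 95% interval 5.32 to 12.6). Nr4a2, known as Nurr1 and required for dopamine neuron identity, did not pass: it stood at 52.7, 43.3, 36.8, 55.0 and 64.2 CPM in VTA and at 49.0 to 82.3 CPM (median 60.9) in NAC (log2 fold change −0.28, SE 0.15, adjusted p = 0.116). Without VTA 5 it passed as lower in VTA (−0.39, adjusted p = 0.0411). The regions overlapped for Nr4a2, and they did for Sox6, a factor of a dopamine neuron subset that oligodendrocyte precursors also use (log2 fold change 0.17, adjusted p = 0.113; 0.31 and 0.00707 under upper-quartile scaling, and it also passed in 3 other alternative fits).

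Receptor and subtype genes of dopamine neurons were mostly higher in VTA. Of 18 members, 12 were higher, against 30.6% of all genes tested, 3 lower, against 32%, and 3 did not pass. The lower members were Neurod6 (log2 fold change −2.53), Vip (−1.65) and Cck, given below. Chrna6, a nicotinic receptor subunit of dopamine neurons, stood at 263, 198, 143, 173 and 373 CPM in VTA and at 0 to 0.148 CPM (median 0.0750) in NAC. Its partner subunit Chrnb3 stood at 204, 149.5, 93.9, 109 and 203 CPM in VTA and at 0.0370 to 0.284 CPM (median 0.111) in NAC. Both followed the order of Th over the VTA libraries at the bottom, with VTA 3 lowest. Ret, the receptor tyrosine kinase of GDNF signalling, stood at 303, 252, 195, 225 and 364 CPM in VTA and at 1.66 to 2.96 CPM (median 1.91) in NAC (126-fold higher, 95% interval 93.1 to 171, adjusted p = 1.46e-10).

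Aldh1a1, an aldehyde dehydrogenase of a dopamine neuron subset, stood at 951, 531, 428, 338 and 942 CPM in VTA and at 8.28 to 15.9 CPM (median 11.7) in NAC (55.2-fold higher, 95% interval 35.4 to 86.2). Calb2, calretinin, stood at 877, 577, 695, 970 and 1014 CPM in VTA and at 22.1 to 45.6 CPM (median 35.0) in NAC (24.6-fold higher). Aldh1a1 was highest in VTA 1 and 5, while Calb2 was highest in VTA 5 and 4. Dlk1, an imprinted Notch-like ligand, was among the 5 most abundant named genes at 4-fold higher in VTA, at 1284, 1060, 686, 928 and 1791 CPM against 9.86 to 41.5 CPM (median 13.6) in NAC. The neurotensin receptor Ntsr1 stood at 99.5, 70.4, 54.7, 76.6 and 116 CPM in VTA and at 2.03 to 4.99 CPM (median 3.52) in NAC (25.0-fold higher, 95% interval 17.5 to 35.8). Cck, a peptide precursor that both dopamine neurons and forebrain neurons use, stood at 1102, 843, 586, 738 and 1343 CPM in VTA and at 1040 to 1993 CPM (median 1890) in NAC (log2 fold change −0.80, SE 0.24, adjusted p = 0.0104), a call that was lost in a fit over all 24 libraries (adjusted p = 0.0906). Its VTA libraries ranked as for Th, and the regions overlapped.

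Other genes that were near absence in NAC fell outside the lists. Mc3r, a melanocortin receptor, stood at 21.6, 16.3, 13.2, 14.4 and 24.5 CPM in VTA and at 0 to 0.203 CPM (median 0.0765) in NAC (7.61 on the log2 scale). Slc39a4, a zinc importer, stood at 46.5, 30.5, 26.2, 31.5 and 56.9 CPM in VTA and at 0.0941 to 0.361 CPM (median 0.225) in NAC (163-fold higher, 95% interval 108 to 245). Both ordered the VTA libraries as Th did at the top, with VTA 5 and then VTA 1 highest.

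Markers of the other neurons a VTA punch can hold were also mostly higher in VTA, but unevenly between libraries. Of 16 tested genes of subcortical glutamate neurons, 13 were higher in VTA, against 30.6% of all genes tested. At 4-fold or more, 12 of them were higher, against 2.43% of all genes tested (list median 4.42). The member Rspo2 was lower in VTA by more than 4-fold (log2 fold change −2.94), and 2 members did not pass. Barhl2, a homeobox factor of diencephalic neurons, stood at 1.85, 0.981, 9.53, 21.9 and 1.80 CPM in VTA and at 0.0941 to 0.542 CPM (median 0.487) in NAC, highest in VTA 4 and 3, and its log2 fold change of 4.22 became 3.19 without VTA 4. The iroquois factor Irx1 was more even over the VTA libraries. It stood at 11.6, 9.08, 7.64, 8.42 and 13.3 CPM in VTA and at 0.625 to 0.903 CPM (median 0.691) in NAC (13.3-fold higher, 95% interval 10.4 to 17.1).

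Of 9 tested transcription factors of midbrain GABA neurons, 8 were higher in VTA, against 30.6% of all genes tested, and 1, the Gata cofactor Zfpm1, was lower. Tal1, which specifies these neurons, stood at 7.56, 6.72, 4.05, 3.50 and 7.13 CPM in VTA and at 1.18 to 1.87 CPM (median 1.34) in NAC (3.93-fold higher, 95% interval 2.82 to 5.46). Gata2 stood at 5.05, 5.12, 4.61, 3.78 and 5.62 CPM in VTA and at 1.89 to 2.85 CPM (median 2.56) in NAC (2.02-fold higher), and Gata3 stood at 6.59, 6.65, 4.10, 2.94 and 8.10 CPM in VTA with at most 0.370 CPM in NAC. All were low in absolute terms. Serotonin neuron genes went both ways. Of 8 tested, 3 were higher in VTA, each at 4-fold or more, 2 lower (Slc22a3, −1.02, and Htr1a, −0.77) and 3 did not pass. The higher members were Tph2, Lmx1b and Gata3. Of these, Lmx1b is also in the dopamine neuron factor list and Gata3 in the midbrain GABA neuron list. Over all genes tested, 30.6% were higher in VTA and 32% lower. The list median was 0.03. Htr1a did not pass in 13 of the alternative fits (adjusted p from 0.0506 to 0.0917). Tph2, the serotonin-making hydroxylase, stood at 14.4, 53.6, 0.538, 0.327 and 45.3 CPM in VTA and at 0.470 to 1.05 CPM (median 0.925) in NAC, with VTA 4 below and VTA 3 inside the NAC range. The Tph2 difference passed (4.68, adjusted p = 0.00125), became 4.09 without VTA 2, and did not pass with replicate number as a block (3.36, adjusted p = 0.0861) or under limma-voom (2.98, adjusted p = 0.212).

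Projection neuron genes of the striatum were mostly higher in NAC. Of 29 genes shared by both classes of projection neuron, 27 were higher in NAC, against 32% of all genes tested, 23 of them at 4-fold or more, and 0 were higher in VTA (median −2.86). Their summed level ran from 3508 to 10230 CPM in NAC and from 852 to 910.1 CPM in VTA. NAC 3 held the highest sum and NAC 1 the lowest, and the VTA libraries lay close together. Ppp1r1b, which encodes the dopamine-regulated phosphatase inhibitor DARPP-32, stood at 74.7, 64.5, 72.8, 60.3 and 57.6 CPM in VTA and at 615 to 2374 CPM (median 890.1) in NAC (19.8-fold higher in NAC, 95% interval 10.9 to 36.0, adjusted p = 9.52e-07). Gng7, the G protein subunit that couples striatal receptors to adenylyl cyclase, stood at 17.9, 19.4, 18.7, 13.6 and 18.4 CPM in VTA and at 224 to 799 CPM (median 309.9) in NAC (26.0-fold higher in NAC, 95% interval 14.0 to 48.0).

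Signalling enzymes of projection neurons followed the same order of libraries. Pde10a, a striatal phosphodiesterase, stood at 11.1, 13.0, 11.6, 13.6 and 12.8 CPM in VTA and at 94.8 to 336 CPM (median 128) in NAC (14.0-fold higher in NAC, 95% interval 8.10 to 24.1). Rgs9, which shortens dopamine receptor signalling, stood at 6.98, 5.70, 6.61, 8.35 and 7.13 CPM in VTA and at 61.5 to 255 CPM (median 90.0) in NAC (18.8-fold higher). Adcy5, the main striatal adenylyl cyclase, stood at 61.0, 59.2, 59.9, 67.4 and 70.8 CPM in VTA and at 187 to 554 CPM (median 244) in NAC (log2 fold change −2.31, SE 0.28). NAC 3 was highest in all of them. Among transcription factors, Meis2 was spread less, at 5.17, 10.9, 6.46, 4.67 and 5.36 CPM in VTA and 189 to 308 CPM (median 211) in NAC (35.4-fold higher in NAC, 95% interval 24.1 to 51.9, adjusted p = 5.26e-09). Foxp2 and Strip2 were the members that did not pass (adjusted p = 0.218 and 0.171).

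Genes that separate the 2 projection neuron classes were higher in NAC on both sides. Of 10 direct-pathway genes 7 were higher in NAC and 1, the factor Ebf1, was higher in VTA. Of 9 indirect-pathway genes 8 were higher in NAC and 1, Drd2, did not pass. Over all genes tested, 32% were higher in NAC and 30.6% in VTA. The opioid peptide precursor Pdyn of the direct pathway stood at 11.1, 7.16, 2.97, 3.87 and 9.92 CPM in VTA and at 87.3 to 330 CPM (median 120.1) in NAC (26.8-fold higher in NAC, 95% interval 12.2 to 58.8, adjusted p = 4.58e-06). The precursor Penk of the indirect pathway stood at 23.2, 51.7, 24.4, 35.6 and 34.8 CPM in VTA and at 373 to 1370 CPM (median 486) in NAC (22.0-fold higher in NAC, 95% interval 11.2 to 43.3, adjusted p = 2.03e-06). Gpr6, an orphan receptor of indirect-pathway neurons, stood at 0.964, 0.763, 0.820, 1.35 and 0.962 CPM in VTA and at 23.6 to 113 CPM (median 39.2) in NAC (60.1-fold higher in NAC). NAC 3 and 7 were the highest 2 of the NAC libraries in Pdyn, Penk and Gpr6.

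The remaining dopamine receptors did not all follow Drd1. Drd2, which is a receptor of striatal neurons and also the autoreceptor of dopamine neurons, stood at 143, 110.2, 75.4, 98.3 and 189 CPM in VTA and at 41.8 to 193 CPM (median 70.9) in NAC. The VTA to NAC ratio was 1.24 with a 95% interval of 0.676 to 2.27 (adjusted p = 0.512), so the regions were not separated for this gene. Drd3 stood at 0.231, 0.472, 0.615, 0.583 and 0.354 CPM in VTA and at 3.21 to 9.83 CPM (median 3.94) in NAC (12.1-fold higher in NAC, 95% interval 6.81 to 21.5). Drd5 stood at 0.501, 0.581, 1.84, 2.17 and 0.430 CPM in VTA and at 3.05 to 4.81 CPM (median 3.77) in NAC (3.54-fold higher in NAC, 95% interval 1.89 to 6.61, adjusted p = 0.00169), with VTA 3 and 4 the highest of the VTA libraries. Drd4 was too low to be tested.

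Cortical glutamate neuron genes were higher in the NAC libraries than in VTA. Of 20 members, 18 were higher in NAC, against 32% of all genes tested, and 13 of them at 4-fold or more, against 3.96%. The summed level of the list ran from 5188 to 7452 CPM in NAC and from 1133 to 2095 CPM in VTA. The defining markers of these cells were present in every NAC library. Tbr1, a factor of cortical projection neurons, stood at 0.771, 16.3, 0.307, 0.350 and 0.101 CPM in VTA and at 37.1 to 78.3 CPM (median 62.7) in NAC (log2 fold change −4.09, SE 0.96, and −7.32 without VTA 2). NAC 3 and 7 were among the lowest NAC libraries in Tbr1, while VTA 2 was the highest VTA library. Cortical markers thus moved with region beside the striatal ones, and their part in the NAC differences was not tested. Camk2a, a kinase of forebrain neurons, stood at 48.8, 199, 57.6, 76.4 and 45.5 CPM in VTA and at 1305 to 1565 CPM (median 1404) in NAC (16.6-fold higher in NAC, 95% interval 9.30 to 29.7).

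Forebrain interneuron genes were likewise higher in NAC, in 13 of 16 members, against 32% of all genes tested, with 3 not passing. Somatostatin (Sst) stood at 44.1, 54.6, 34.3, 50.8 and 38.6 CPM in VTA and at 698 to 1099 CPM (median 947) in NAC (20.9-fold higher in NAC, 95% interval 16.3 to 26.8, adjusted p = 7.07e-10). Neuropeptide Y (Npy), made by an overlapping set of interneurons, stood at 26.7, 19.4, 30.0, 38.1 and 14.1 CPM in VTA and at 303 to 441 CPM (median 366) in NAC (14.4-fold higher in NAC, 95% interval 10.0 to 20.7). Parvalbumin (Pvalb) did not pass and leaned the other way, at 88.5, 184, 297, 134 and 129.5 CPM in VTA and 69.9 to 149 CPM (median 95.7) in NAC (log2 fold change 0.65, SE 0.27, adjusted p = 0.051). It passed as higher in VTA under all 3 other scalings (adjusted p from 0.0213 to 0.0467), among protein-coding genes alone (0.0299) and without NAC 4, VTA 1 or VTA 5 (0.0321, 0.0152 and 0.0478). The highest parvalbumin level was in VTA 3. Cholinergic genes were higher in NAC in 6 of 9 tested members, against 32% of all genes tested. Chat, which makes acetylcholine, stood at 0.347, 0.509, 1.15, 1.21 and 0.329 CPM in VTA and at 1.68 to 6.34 CPM (median 2.38) in NAC (5.02-fold higher in NAC, 95% interval 2.29 to 11.0).

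**Figure D2:**
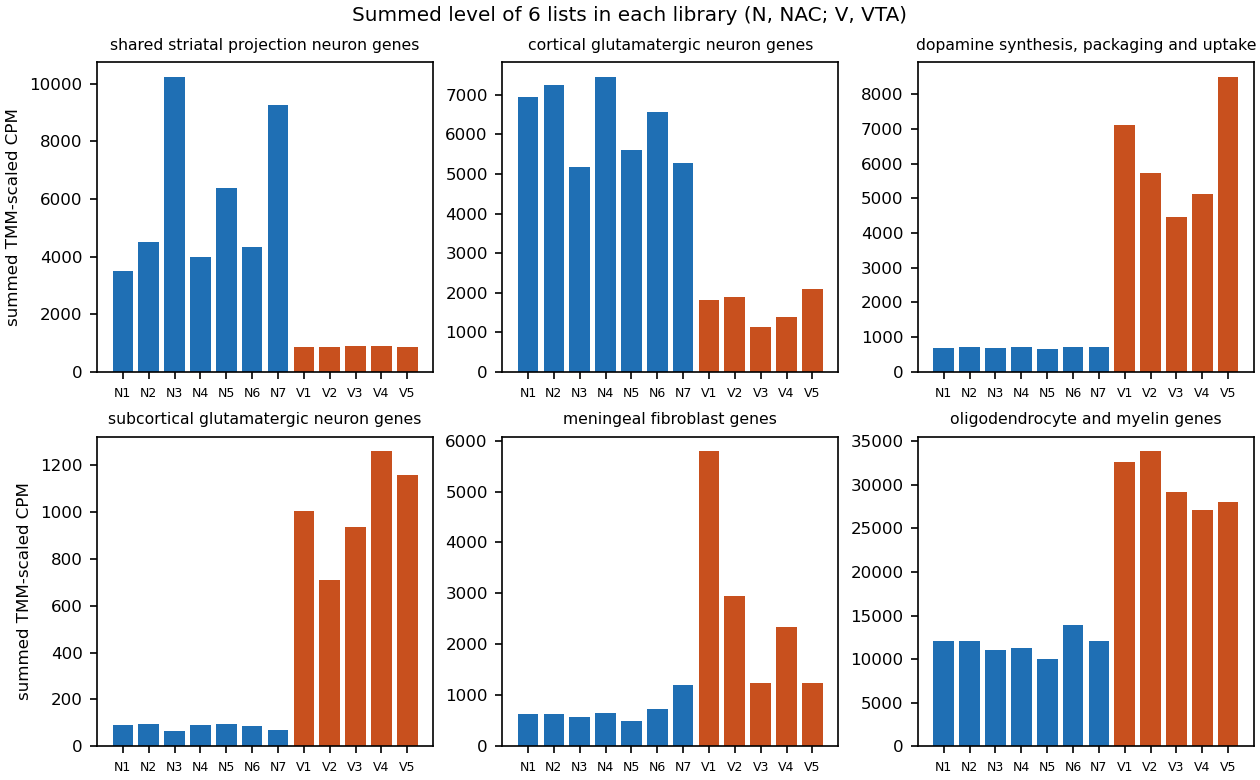
Summed level of 6 lists in each library (TMM-scaled CPM; N1 to N7 are NAC and V1 to V5 VTA libraries; bars start at 0). The striatal sum of NAC 3 was 10230 CPM against 3508 CPM in NAC 1, and the meningeal sum of VTA 1 was 5791 CPM against 1204 CPM in the highest NAC library. Most of the meningeal sum of VTA 1 was the level of Ptgds alone.

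Regional transcription factors split almost completely by the part of the brain they mark. Of 27 tested forebrain factors, 24 were higher in NAC, 20 of them at 4-fold or more (median −3.85). Of 33 tested midbrain and hindbrain factors, 30 were higher in VTA, 25 of them at 4-fold or more (median 5.56). Over all genes tested, 32% were higher in NAC and 30.6% in VTA. At 4-fold or more these shares were 3.96% and 2.43%. Dlx2, a factor of forebrain GABA neurons, stood at 0.270, 0.363, 0.102, 0.303 and 0.0506 CPM in VTA and at 9.46 to 24.6 CPM (median 18.6) in NAC (85.9-fold higher in NAC, 95% interval 45.6 to 162). Dlx5, its relative, stood at 0.116, 0.872, 0.128, 0.163 and 0.0759 CPM in VTA and at 22.6 to 49.6 CPM (median 27.9) in NAC (−7.00, and −8.00 without VTA 2). The exceptions were few: Meis1 and Ebf1 of the forebrain list were higher in VTA, and Pax6 of the midbrain and hindbrain list, which is also used in the forebrain, was higher in NAC (log2 fold change −2.23, SE 0.24).

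Factors of the midbrain-hindbrain boundary were present in VTA at low levels. Pax5 stood at 13.5, 10.2, 3.64, 4.99 and 14.5 CPM in VTA and at 0 to 0.289 CPM (median 0.0741) in NAC . Its log2 fold change of 6.66 became 7.32 without NAC 4, and it was highest in VTA 5 and 1. Pax2, its paralog, stood at 1.97, 1.89, 0.871, 1.35 and 2.48 CPM in VTA and at no more than 0.0470 CPM in NAC. Of 22 Hox genes, which mark the hindbrain and spinal cord, 20 were too low to be tested.

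**Figure D3:**
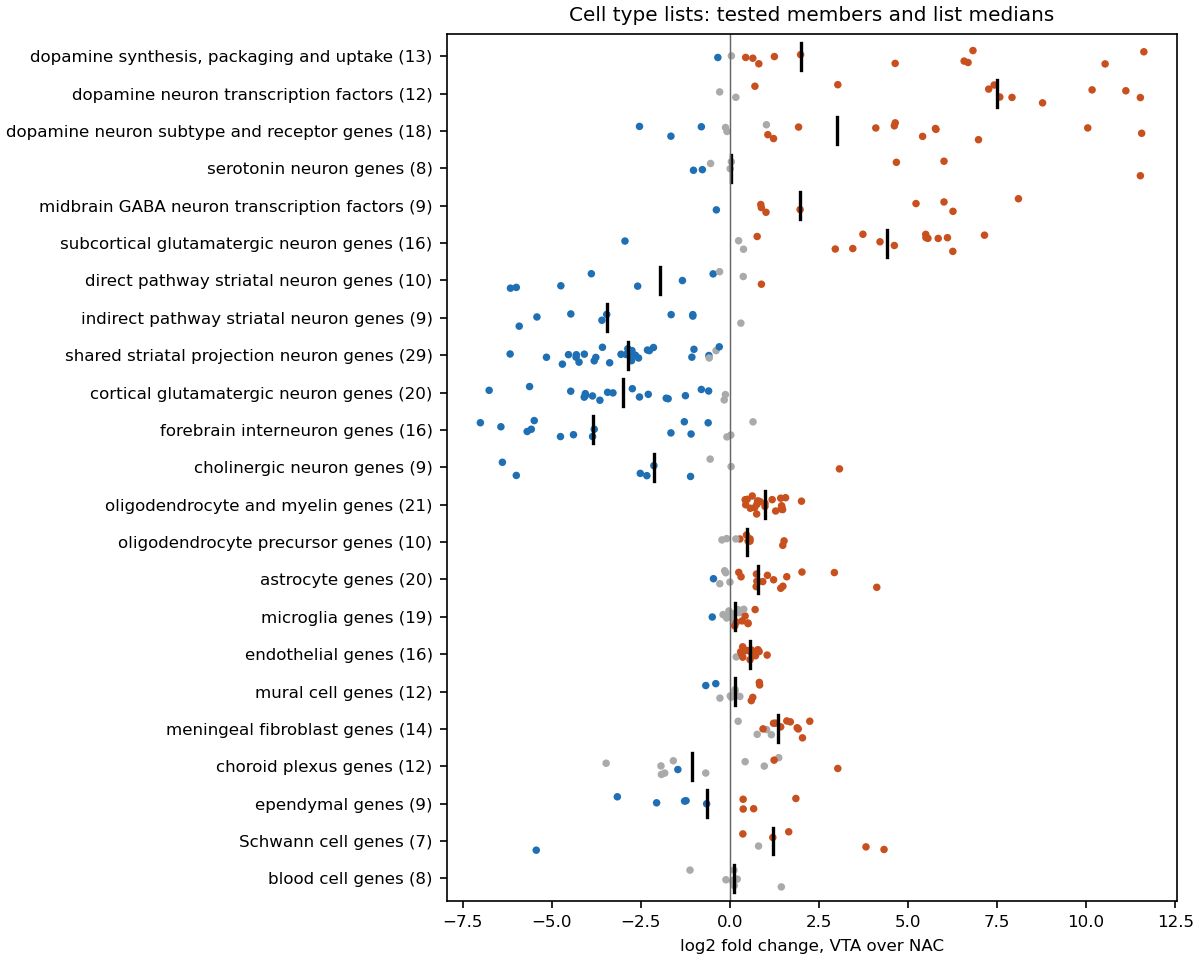
Log2 fold change, VTA over NAC, of each tested member of the cell type lists (points; orange passing and higher in VTA, blue passing and lower in VTA, grey not passing) with the list median (black bar) and the number tested in brackets. The medians of the dopamine and myelin lists lay to the right and those of the striatal, cortical and interneuron lists to the left of 0. Single members of several of these lists lay on the other side.

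Oligodendrocyte genes were higher in VTA without exception. All 21 tested members passed in that direction, against 30.6% of all genes tested, and did not overlap between regions, against 43.5% of all genes. The members had a median of 0.99, and 1 of them reached 4-fold. Their summed level ran from 27110 to 33870 CPM in VTA and from 10030 to 13930 CPM in NAC. Myelin basic protein, Mbp, stood at 15150, 16020, 13300, 13000 and 13190 CPM in VTA and at 4361 to 6275 CPM (median 5331) in NAC (2.69-fold higher, 95% interval 2.37 to 3.05, adjusted p = 2.03e-08). Apod, a lipid carrier made by oligodendrocytes, stood at 1866, 1906, 1495, 1457 and 1639 CPM in VTA and at 369 to 470.5 CPM (median 419) in NAC (4.03-fold higher, 95% interval 3.56 to 4.57). The factors that define the lineage differed less, Sox10 by 0.43 and Olig2 by 0.49 on the log2 scale. Of 10 precursor genes 7 were higher in VTA, against 30.6% of all genes, among them Pdgfra (0.51) and Bcas1 (1.52).

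Astrocyte genes were higher in VTA in 15 of 20 members, against 30.6% of all genes tested, with 1 lower and 4 not passing. A few members differed far more than the list median of 0.78. Agt, angiotensinogen, stood at 712, 606, 820.2, 855 and 873 CPM in VTA and at 32.0 to 55.6 CPM (median 44.6) in NAC (17.5-fold higher, 95% interval 13.8 to 22.0, adjusted p = 7.07e-10). Slc6a11, the astrocytic GABA transporter GAT3, stood at 425, 393, 596, 519.6 and 481 CPM in VTA and at 51.4 to 70.0 CPM (median 62.5) in NAC (7.65-fold higher, 95% interval 6.48 to 9.02, adjusted p = 7.07e-10). Both were tight within each region. Itih3, an extracellular matrix protein, stood at 529, 465, 828, 699.5 and 664 CPM in VTA and at 128 to 178 CPM (median 158) in NAC (4.07-fold higher, 95% interval 3.33 to 4.97). The glutamate transporter Slc1a2 was the member that was higher in NAC, at 571 to 703 CPM (median 620.3) against 410.1, 560, 554, 389 and 384 CPM in VTA (1.37-fold higher in NAC, 95% interval 1.17 to 1.62). Slc1a3, the other astrocytic glutamate transporter, and Sox9, an astrocyte factor, did not pass (log2 fold changes −0.11 and 0.00), so the list did not move as one.

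Microglia genes differed little. Of 19 members 7 were higher in VTA, a share close to the 30.6% of all genes, and 11 did not pass (median 0.14). Csf1r, the receptor that microglia need to survive, stood at 81.3, 72.5, 64.2, 61.0 and 63.3 CPM in VTA and at 59.8 to 68.9 CPM (median 62.6) in NAC (adjusted p = 0.204; 0.00917 under upper-quartile scaling and 0.0303 with library totals). Endothelial genes were higher in VTA in 15 of 16 members, against 30.6% of all genes, by a small amount (median 0.57). Flt1, a VEGF receptor, stood at 35.5, 37.8, 38.3, 28.6 and 32.6 CPM in VTA and at 21.6 to 26.0 CPM (median 23.2) in NAC (1.48-fold higher, 95% interval 1.32 to 1.66). The 8 tested haemoglobin and other blood genes did not pass (median 0.11).

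Tissue at the edge of the brain was unequal between punches. Of 14 meningeal fibroblast genes 10 were higher in VTA, against 30.6% of all genes, and 3 did not overlap between regions, against 43.5% of all genes. Ptgds, a prostaglandin D synthase of the meninges, stood at 5201, 2616, 1049, 2127 and 1092 CPM in VTA and at 397 to 1006 CPM (median 534) in NAC (4.11-fold higher, 95% interval 2.32 to 7.29). Col1a2, a fibrillar collagen, stood at 56.8, 25.9, 5.77, 9.91 and 5.49 CPM in VTA and at 4.62 to 12.4 CPM (median 5.41) in NAC, and its log2 fold change of 1.70 became 0.88 without VTA 1 (adjusted p = 0.092), and it did not pass with replicate number as a block (1.33, adjusted p = 0.068) or under limma-voom (1.30, adjusted p = 0.0755). VTA 1 was highest and VTA 2 next in both. Transthyretin (Ttr), made by the choroid plexus, stood at 788 and 845 CPM in NAC 6 and 7, at 0.925 to 29.3 CPM in the other NAC libraries and at 4.35 to 42.2 CPM in VTA, and did not pass (log2 fold change −3.47, adjusted p = 0.0728), while DESeq2 passed it (−3.45, adjusted p = 0.0164), as did the fit without NAC 1 (−3.69, adjusted p = 0.0442). Counts for choroid plexus, ependymal and Schwann cell lists changed with single libraries and are not used as group results.

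Receptors for several transmitters differed subunit by subunit rather than as families. Among 10 tested nicotinic subunits, 7 were higher in VTA, against 30.6% of all genes tested, and 2 lower, against 32%. Beside Chrna6 and Chrnb3, Chrna3 stood at 27.8, 22.0, 12.7, 11.8 and 22.0 CPM in VTA and at 1.30 to 2.03 CPM (median 1.56) in NAC (12.1-fold higher, 95% interval 8.69 to 16.9), and Chrna5 at 81.5, 61.6, 26.0, 22.4 and 59.5 CPM in VTA and 8.53 to 20.5 CPM (median 13.3) in NAC (3.49-fold higher). Both were higher in VTA 1, 2 and 5 than in VTA 3 and 4. Chrna2 was higher in NAC, at 2.46 to 3.43 CPM (median 2.70) against 0.463, 0.908, 0.487, 0.257 and 0.329 CPM in VTA (log2 fold change −2.56, SE 0.28). Among 5 muscarinic receptors 1 was higher in VTA and 3 in NAC, against the same shares of all genes, 30.6% and 32%. Chrm5, a receptor of dopamine neurons, stood at 22.3, 18.3, 12.2, 15.9 and 26.6 CPM in VTA and at 1.07 to 2.84 CPM (median 1.70) in NAC (10.8-fold higher in VTA, 95% interval 7.31 to 15.8). Chrm1 stood at 1.89, 7.74, 0.871, 1.73 and 0.759 CPM in VTA and at 122 to 141 CPM (median 136) in NAC (log2 fold change −5.74, and −6.68 without VTA 2), and Chrm4, the receptor of direct-pathway neurons, was also higher in NAC (−3.89, SE 0.26).

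Of 8 opioid receptor and precursor genes, 4 were higher in NAC (32% of all genes), 2 higher in VTA (30.6% of all genes) and 2 did not pass. The precursors Penk and Pdyn, given above, had the largest differences. The mu receptor Oprm1 stood at 2.27, 3.02, 4.23, 5.11 and 2.33 CPM in VTA and at 5.13 to 10.4 CPM (median 6.15) in NAC (2.01-fold higher in NAC, 95% interval 1.35 to 2.98, adjusted p = 0.00409). The delta receptor Oprd1 stood at 0.964, 1.16, 1.49, 2.92 and 0.886 CPM in VTA and at 9.55 to 16.6 CPM (median 11.1) in NAC (7.84-fold higher in NAC, 95% interval 4.96 to 12.4). VTA 4 was highest of the VTA libraries in both. The kappa receptor Oprk1 did not pass, at 17.8, 15.8, 10.6, 11.5 and 17.9 CPM in VTA and 6.29 to 16.4 CPM (median 9.14) in NAC (VTA to NAC ratio 1.35, 95% interval 0.900 to 2.04, adjusted p = 0.168), although limma-voom passed it (0.62, adjusted p = 0.0336). Pnoc, the nociceptin precursor and the other member not passing, had a log2 fold change of 0.59 (adjusted p = 0.0561) and passed as higher in VTA in 7 of the alternative fits, with adjusted p from 0.00563 to 0.0471. The nociceptin receptor Oprl1 was higher in VTA, at 28.8, 31.8, 34.8, 39.6 and 37.2 CPM against 15.1 to 26.8 CPM (median 21.0) in NAC (1.70-fold higher, 95% interval 1.38 to 2.08).

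Serotonin receptors were higher in NAC in 8 of 12 tested members, against 32% of all genes tested. Htr6 led them, at 8.18 to 25.2 CPM (median 11.0) in NAC against 1.39, 0.799, 1.51, 1.59 and 0.784 CPM in VTA (11.9-fold higher in NAC). Htr7 was the member higher in VTA (log2 fold change 0.85, adjusted p = 0.00925), and this call was lost with replicate number as a block (0.77, adjusted p = 0.0596). Among adrenergic and histamine receptors, Hrh3, the histamine autoreceptor that striatal neurons also carry, stood at 27.7, 31.3, 38.4, 47.6 and 33.1 CPM in VTA and at 322 to 386 CPM (median 333) in NAC (9.55-fold higher in NAC, 95% interval 7.86 to 11.6, adjusted p = 9.92e-10). It was the most abundant of the 12 tested members of that list in NAC and varied little between libraries. Adra2c, an adrenergic receptor of the striatum, was also higher in NAC (−3.24, SE 0.20), and Adra1b was higher in VTA (0.98, SE 0.25). The cannabinoid receptor Cnr1 stood at 12.1, 16.1, 17.1, 16.6 and 11.4 CPM in VTA and at 46.6 to 99.2 CPM (median 71.5) in NAC (4.78-fold higher in NAC, 95% interval 3.52 to 6.49), and here NAC 3 and 7 were the lowest of the NAC libraries.

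Ionotropic glutamate receptor subunits were higher in NAC in 13 of 18 members, against 32% of all genes tested, with 2 higher in VTA, against 30.6%. Gria1, an AMPA receptor subunit, stood at 52.2, 48.2, 49.3, 55.9 and 55.1 CPM in VTA and at 186 to 257 CPM (median 226) in NAC (4.22-fold higher in NAC, 95% interval 3.71 to 4.80, adjusted p = 1.28e-09). The NMDA receptor subunits Grin2b and Grin2d went opposite ways: Grin2b stood at 6.63, 5.92, 5.46, 6.13 and 5.64 CPM in VTA and at 25.0 to 37.4 CPM (median 28.5) in NAC (5.10-fold higher in NAC, 95% interval 4.24 to 6.12). Grin2d stood at 20.1, 19.1, 24.3, 26.9 and 26.9 CPM in VTA and at 4.51 to 6.61 CPM (median 5.51) in NAC (4.24-fold higher in VTA, 95% interval 3.54 to 5.08, adjusted p = 1.77e-08). The kainate subunit Grik4 was the other member higher in VTA (log2 fold change 0.71, SE 0.0599). Of the metabotropic receptors, Grm5 was the one with the largest difference, at 10.0, 10.4, 13.5, 15.4 and 10.7 CPM in VTA and 53.0 to 97.7 CPM (median 65.8) in NAC (5.82-fold higher in NAC).

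Inhibitory receptor subunits also lay on both sides. Of 14 tested GABA-A subunits, 7 were higher in NAC, against 32% of all genes, and 4 in VTA, the latter close to the 30.6% of all genes. Gabrd, the subunit of extrasynaptic receptors, stood at 1.39, 6.54, 0.615, 0.816 and 0.329 CPM in VTA and at 53.3 to 80.4 CPM (median 62.4) in NAC (log2 fold change −5.15, and −6.42 without VTA 2). Gabra5 stood at 9.37, 10.7, 18, 20.2 and 10.4 CPM in VTA and at 59.3 to 72.4 CPM (median 66.7) in NAC (4.77-fold higher in NAC, 95% interval 3.57 to 6.39). Gabre, a subunit of hypothalamic and brainstem neurons, stood at 3.43, 4.69, 2.64, 3.96 and 4.55 CPM in VTA and at 0.344 to 0.875 CPM (median 0.517) in NAC (6.92-fold higher in VTA, 95% interval 4.84 to 9.90). The glycine receptor subunit Glra1, typical of the brainstem and spinal cord, stood at 10.6, 15.3, 16.0, 10.5 and 14.4 CPM in VTA and at 0.0470 to 0.630 CPM (median 0.185) in NAC (47.2-fold higher in VTA, 95% interval 23.4 to 95.5, adjusted p = 4.17e-07). Slc6a9, the glial glycine transporter, stood at 211, 200, 226, 212 and 208 CPM in VTA and at 73.8 to 84.1 CPM (median 78.0) in NAC (2.69-fold higher in VTA, 95% interval 2.51 to 2.87, adjusted p = 2.45e-10). The GABA-making enzyme Gad1 was higher in NAC, at 201 to 307 CPM (median 214) against 99.3, 96.6, 56.0, 54.2 and 109 CPM in VTA (2.91-fold higher in NAC, 95% interval 2.13 to 3.97).

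**Figure D4:**
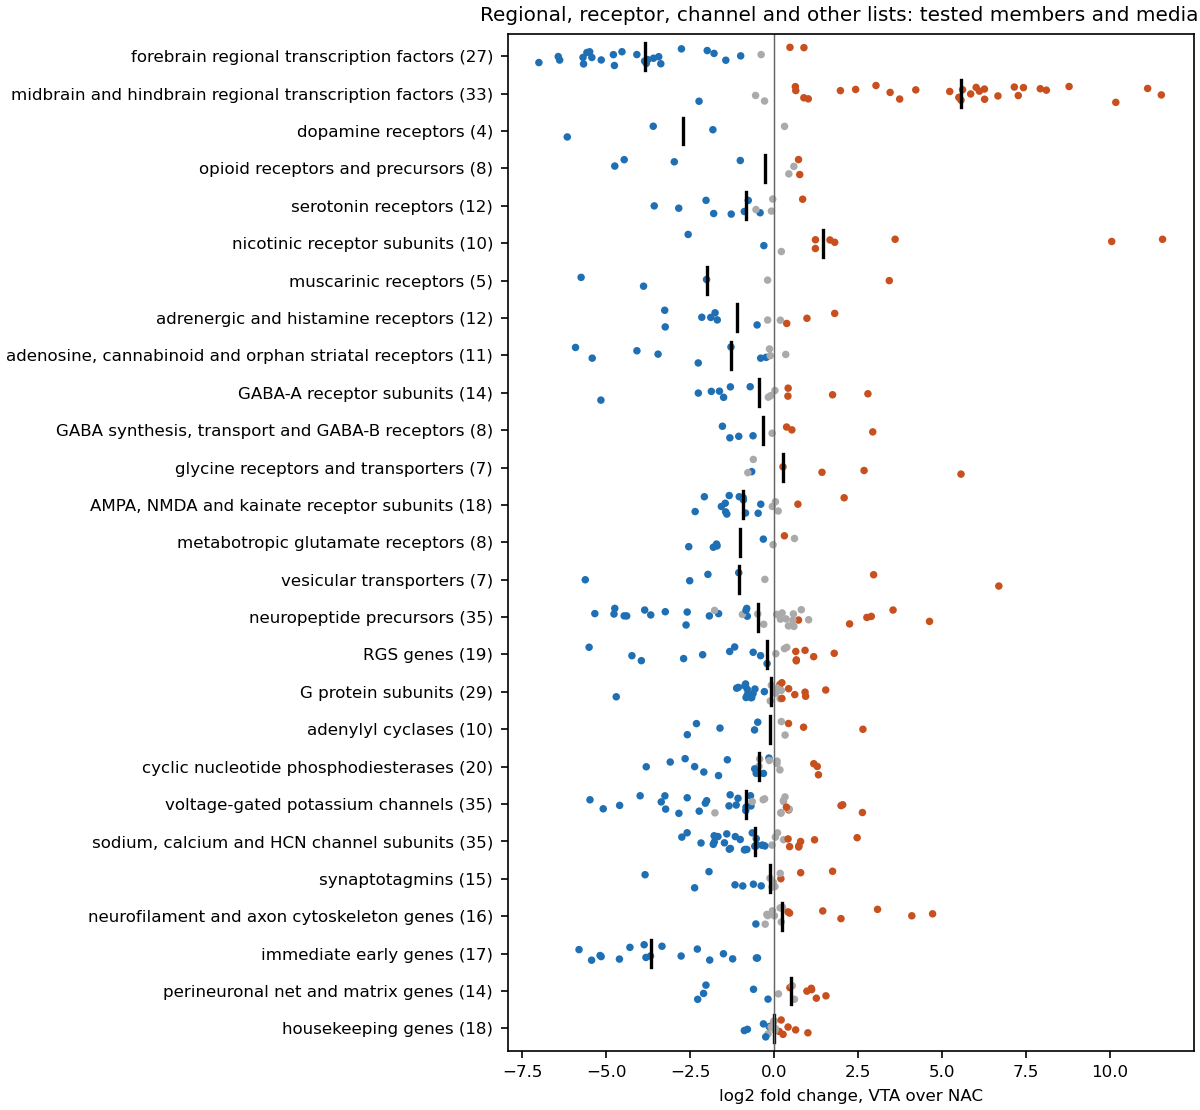
Log2 fold change, VTA over NAC, of each tested member of the regional factor, receptor, channel, peptide and other lists (points; orange passing and higher in VTA, blue passing and lower in VTA, grey not passing) with the list median (black bar) and the number tested in brackets. Most receptor and channel families held members on both sides of 0, while the 17 immediate early genes all lay to the left.

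Ion channels leaned to NAC with single genes on the other side. Of 35 voltage-gated potassium channel genes 20 were higher in NAC, against 32% of all genes, and 5 in VTA, and 10 were higher in VTA under upper-quartile scaling. Kcnf1, a modifying subunit, stood at 5.28, 5.56, 3.15, 5.13 and 3.75 CPM in VTA and at 95.1 to 123 CPM (median 109) in NAC (24.2-fold higher in NAC, 95% interval 19.3 to 30.3, adjusted p = 2.8e-10). Kcnd3, which carries the A-type current, stood at 108, 92.6, 63.2, 67.8 and 109 CPM in VTA and at 17.1 to 24.5 CPM (median 22.6) in NAC (4.11-fold higher in VTA, 95% interval 3.25 to 5.21). Kcnd3 ranked VTA 5 and 1 highest, as Th did, whereas Kcng4, another modifying subunit, was highest in VTA 3, at 10.2, 21.7, 35.6, 21.3 and 14.3 CPM in VTA against 2.67 to 4.14 CPM (median 3.37) in NAC (6.18-fold higher in VTA, 95% interval 4.20 to 9.09). Of 35 tested sodium, calcium and HCN channel genes 24 were higher in NAC, against 32% of all genes, and 7 in VTA, against 30.6%. Scn9a, a sodium channel best known from sensory neurons, stood at 6.44, 6.50, 7.82, 6.79 and 5.77 CPM in VTA and at 0.759 to 1.6 CPM (median 1.07) in NAC (5.54-fold higher in VTA, 95% interval 4.08 to 7.54). Hcn2 and Hcn3, pacemaker channels, were also higher in VTA (0.74 and 1.20 on the log2 scale).

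Second-messenger genes also differed in both directions within families. Rgs14, a regulator of G protein signalling, stood at 2.35, 2.43, 1.10, 1.84 and 1.04 CPM in VTA and at 71.8 to 83.6 CPM (median 77.6) in NAC (45.4-fold higher in NAC, 95% interval 33.5 to 61.7, adjusted p = 6.38e-10). Rgs11 stood at 26.3, 24.5, 26.6, 25.2 and 24.3 CPM in VTA and at 5.60 to 9.25 CPM (median 7.43) in NAC (3.45-fold higher in VTA, 95% interval 2.94 to 4.06). Of 19 genes of this family 10 were higher in NAC, against 32% of all genes, and 6 in VTA, close to the 30.6% of all genes. Among 10 adenylyl cyclases, Adcy7 stood at 10.8, 9.70, 14.4, 16.1 and 11.4 CPM in VTA and at 1.58 to 2.49 CPM (median 1.88) in NAC (6.25-fold higher in VTA, 95% interval 4.96 to 7.87), opposite to Adcy5. Adcy1, a calcium-stimulated cyclase, was higher in NAC (−2.58, SE 0.24). Among 20 tested phosphodiesterases 11 were higher in NAC, against 32% of all genes, and 3 in VTA, against 30.6%. The latter included Pde8a, at 33.9, 32.0, 33.4, 32.5 and 33.1 CPM in VTA and 11.6 to 16.9 CPM (median 12.8) in NAC (2.50-fold higher in VTA).

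Neuropeptide precursors gave 15 of 35 tested members higher in NAC, 6 higher in VTA and 14 not passing. The share passing is close to the 62.6% of all genes. Cartpt, the CART precursor, stood at 12.3, 7.30, 36.2, 45.7 and 10.8 CPM in VTA and at 99.4 to 382 CPM (median 168) in NAC (9.44-fold higher in NAC, 95% interval 4.02 to 22.1). Tac1, the substance P precursor, stood at 29.2, 19.5, 56.9, 66.4 and 30.3 CPM in VTA and at 137 to 371 CPM (median 193) in NAC (6.00-fold higher in NAC). Adcyap1, the PACAP precursor, stood at 29.7, 27.4, 68.0, 95.2 and 26.5 CPM in VTA and at 2.59 to 14.6 CPM (median 6.58) in NAC (6.77-fold higher in VTA, 95% interval 3.48 to 13.2). VTA 3 and 4, the libraries rich in Slc17a6, were the highest VTA libraries in all 3. Cbln1, a synapse organiser listed here with the peptides, followed the same order, at 35.8, 29.6, 89.0, 107 and 40.2 CPM in VTA and 3.59 to 8.69 CPM (median 4.84) in NAC (11.6-fold higher in VTA, 95% interval 6.72 to 20.1). Tac3, the neurokinin B precursor, stood at 1.74, 7.16, 0.718, 0.980 and 0.582 CPM in VTA and at 45.4 to 104 CPM (median 94.3) in NAC (log2 fold change −5.34, and −6.46 without VTA 2). Pmch, the precursor of melanin-concentrating hormone, was low and higher in VTA, at 4.28, 5.92, 8.64, 9.14 and 8.07 CPM against 0.191 to 1.95 CPM (median 0.926) in NAC (7.42-fold higher).

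Neurofilament and other axonal genes were uneven within VTA. Nefh, the heavy neurofilament, stood at 138, 289, 425, 214 and 153 CPM in VTA and at 47.3 to 80.1 CPM (median 59.7) in NAC (3.97-fold higher in VTA, 95% interval 2.66 to 5.92). Spp1, osteopontin, stood at 14.3, 90.0, 157, 38.1 and 18 CPM in VTA and at 0.803 to 4.15 CPM (median 2.29) in NAC, and its log2 fold change of 4.72 became 4.06 without VTA 3. VTA 3 was the highest and VTA 2 the second highest library in both, an order shared with Kcng4 and Pvalb. Prph, peripherin, was steadier, at 64.0, 58.8, 93.4, 86.4 and 74.0 CPM in VTA and 6.54 to 10.4 CPM (median 9.75) in NAC (8.44-fold higher in VTA, 95% interval 6.69 to 10.6), and Sncg, gamma-synuclein, was at 431, 379.5, 354, 299 and 479 CPM in VTA and 6.65 to 42.6 CPM (median 25.0) in NAC (17.1-fold higher in VTA, 95% interval 7.91 to 37.0). Of the 16 members of this list 7 were higher in VTA, against 30.6% of all genes, and 8 did not pass.

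Immediate early genes, which neurons switch on within minutes of activity, were all higher in NAC. Each of the 17 members passed, against 32% of all genes tested that were higher in NAC. Of these members, 12 passed at 4-fold or more, against 3.96% of all genes. The regions did not overlap in 16, against 43.5% of all genes, and the median was −3.68. The list summed to between 1252 and 1547 CPM in NAC and between 261 and 338 CPM in VTA. Egr1, a zinc-finger factor, stood at 9.26, 16.6, 6.48, 9.70 and 6.88 CPM in VTA and at 176 to 218 CPM (median 189.5) in NAC (19.6-fold higher in NAC, 95% interval 13.9 to 27.5, adjusted p = 8.9e-09). Arc, a synaptic protein made from dendritic RNA, stood at 3.93, 10.6, 2.87, 3.80 and 2.73 CPM in VTA and at 139 to 204 CPM (median 168) in NAC (36.2-fold higher in NAC, 95% interval 21.4 to 61.2, adjusted p = 6.08e-08). VTA 2 was the highest VTA library in both. The striatal and cortical neuron lists were higher in the same libraries, as given above, and their part in the immediate early gene difference was not tested.

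Npas4, an activity-dependent factor of neurons, stood at 0.308, 0.799, 0.179, 0.583 and 0.658 CPM in VTA and at 12.7 to 24.8 CPM (median 17.3) in NAC (35.4-fold higher in NAC, 95% interval 21.6 to 58.1). Fos, the best known of these genes, stood at 8.41, 19.1, 6.54, 12.2 and 10.3 CPM in VTA and at 40.1 to 63.6 CPM (median 59.4) in NAC (4.87-fold higher in NAC, 95% interval 3.38 to 7.02, adjusted p = 3.19e-06). Fos differed less than Egr1, Arc and Npas4, and so did Jun and Jund, with log2 fold changes of −0.53 and −0.49. Junb stood at 11.9, 13.2, 7.74, 15.5 and 11.2 CPM in VTA and at 133 to 171 CPM (median 152) in NAC (12.8-fold higher in NAC, 95% interval 10.1 to 16.3). Egr3 stood at 0.578, 10.6, 0.436, 0.350 and 0.202 CPM in VTA and at 40.6 to 69.9 CPM (median 52.0) in NAC (log2 fold change −4.60, and −7.18 without VTA 2), and Egr4 at 1.47, 4.36, 0.641, 0.560 and 0.380 CPM in VTA and 66.7 to 89.4 CPM (median 77.9) in NAC (−5.81, and −6.74 without VTA 2). The regions did not overlap in Npas4, Fos, Junb, Egr3 or Egr4.

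**Figure D5:**
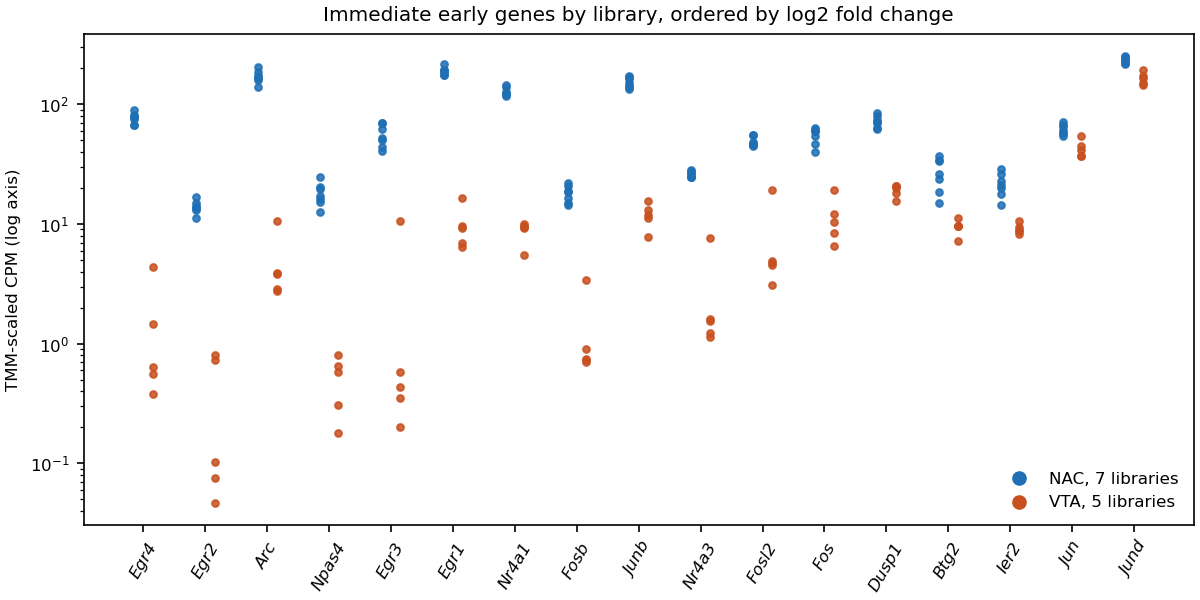
Level of the 17 immediate early genes in each library (TMM-scaled CPM, log axis; blue points NAC, orange points VTA), ordered by log2 fold change. In 16 of the 17 genes, all but Jun, the 7 NAC libraries lay above the 5 VTA libraries.

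The promoter of Egr2 is shown as that of an immediate early gene with a serum response element, the CArG box that binds serum response factor. Egr2 stood at 0.733, 0.799, 0.102, 0.0466 and 0.0759 CPM in VTA and at 11.3 to 16.7 CPM (median 13.7) in NAC (log2 fold change −5.43, SE 0.59, and −6.04 without VTA 2). The capitals mark the box, which begins 83 bases before the start.
Egr2 (chr20:21054442-21054691, minus strand): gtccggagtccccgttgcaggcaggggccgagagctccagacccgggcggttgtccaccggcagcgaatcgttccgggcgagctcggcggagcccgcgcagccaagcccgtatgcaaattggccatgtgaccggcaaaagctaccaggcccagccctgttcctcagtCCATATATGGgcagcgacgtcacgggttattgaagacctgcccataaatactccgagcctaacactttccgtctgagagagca
A CArG box was found, on both strands, in 2 of the 12 immediate early genes with a promoter in the table and in 1.5% of all promoters, and TGACGTCA in 4 of the 12 and in 1.7% of all. Among the genes at 4-fold lower in VTA, a CArG box was in 2.16% of 601 promoters and TGACGTCA in 2.83%. Among the 15200 promoters of tested genes these shares were 1.2% and 2.4%.

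Several of the largest NAC differences lay in genes that belong to none of the striatal or cortical lists. Ankrd63, an ankyrin repeat gene, stood at 0.463, 0.509, 0.0769, 0.0466 and 0.0253 CPM in VTA and at 50.9 to 91.4 CPM (median 56.1) in NAC (−8.42 on the log2 scale, SE 0.44). Crym, a thyroid hormone-binding protein, stood at 11.2, 10.2, 8.23, 6.79 and 6.55 CPM in VTA and at 399.8 to 596 CPM (median 527) in NAC (60.6-fold higher in NAC, 95% interval 46.1 to 79.7, adjusted p = 2e-10). Crym varied less over the NAC libraries, whereas Lrrc10b, a leucine-rich repeat gene, was highest in NAC 3, 7 and 5, at 69.5 to 294 CPM (median 98.2) against 2.70, 1.16, 2.44, 2.33 and 2.83 CPM in VTA (65.9-fold higher in NAC). Ccn3, a matricellular protein, was lowest in those same libraries, at 271 to 689 CPM (median 418) against 12.6, 13.4, 3.05, 3.08 and 2.30 CPM in VTA (64.7-fold higher in NAC, 95% interval 26.4 to 159). Kcnj4, an inward rectifier channel, stood at 2.00, 10.2, 0.436, 1.03 and 0.278 CPM in VTA and at 167 to 246 CPM (median 202) in NAC (−6.30, and −7.88 without VTA 2). Hpca, hippocalcin, a neuronal calcium sensor, was among the 5 most abundant named genes at 4-fold higher in NAC, at 776 to 1813 CPM (median 944) against 61.8, 105, 101, 156 and 78.2 CPM in VTA (11.7-fold higher in NAC).

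Genes often used as stable references passed about as often as other genes. Of 18 housekeeping genes 6 were higher in VTA, 5 lower and 7 did not pass (median −0.01), shares close to the 30.6% and 32% of all genes. Actb, cytoplasmic actin, stood at 1419, 1377, 1450, 1701 and 1772 CPM in VTA and at 2418 to 3163 CPM (median 2583) in NAC (1.74-fold higher in NAC, 95% interval 1.53 to 1.97). Ppia, a peptidyl-prolyl isomerase, did not pass, with a VTA to NAC ratio of 0.988 (95% interval 0.906 to 1.08). These counts moved with the scaling, which shifted the median of all genes from 0.02 to as much as 0.17.

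The MOR-sired libraries, which share none with the comparison above, gave the region difference a second reading. There 10802 of 19171 tested genes passed (56.3%). Of the 12048 genes passing in SAL-sired libraries, 9629 passed the same way in MOR-sired ones, which is 79.9% of the SAL-sired and 89.1% of the MOR-sired calls, and 3 passed the opposite way, Cdh1, H3f3a-ps9 and Rn45sl1. Of the 1230 genes at 4-fold, 1158 were tested there and 1114 passed in the same direction. The log2 fold changes were 10.91 for Th, −6.05 for Drd1, 4.26 for Agt and −4.75 for Egr1 in MOR-sired libraries. All 10 passing dopamine transcription factors, all 21 oligodendrocyte genes and 16 of the 17 immediate early genes repeated their call, as did 23 of the 27 shared projection neuron genes. Genes described above that did not pass there included Barhl2 (0.88), Oprm1 (−0.54), Cck (−0.80) and Jun (−0.35). The call was repeated by 3 of the 5 passing serotonin neuron genes and by 5 of the 9 passing serotonin receptor genes. The MOR-sired VTA group has its own limits: Xist goes against the male label in VTA 3, 4 and 5, and ribosomal RNA took up to 10.8% of a library there against at most 0.374% in the SAL-sired ones.

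The region differences of the 2 sire groups were then set against each other. An interaction over all 24 libraries passed 0 of 20603 genes by edgeR's quasi-likelihood test (smallest adjusted p = 0.421), with 984 at an unadjusted p under 0.05, while DESeq2 passed 93. Without the 4 VTA libraries whose sex-linked transcripts go against their label, edgeR passed 7. No difference above is therefore described as particular to the SAL-sired offspring, and a p that misses the threshold does not show that the region differences were equal.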

How the data were processed

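RNA was extracted from frozen bilateral punches and made into libraries with a directional kit, per the labels' protocols. The authors deposited 1 table of estimated counts for each region, in which the values follow TPM scaled to library size, per the name the authors gave the tables. Trim Galore, kallisto and DESeq2 were used, per the submitters' processing notes; versions, genome build, annotation and strand setting: not given in the sources used here. Both tables were joined on gene symbol (37403 genes, the same set in both), and estimated counts were rounded to integers. No column lay outside the 24 samples, and no 2 columns were identical.

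Genes were filtered with filterByExpr, scaled with TMM factors and tested with edgeR 4.0.16 (R 4.3.3) by its quasi-likelihood test over the 12 SAL-sired libraries, with Benjamini-Hochberg adjustment over all 19253 genes tested and no covariate. A gene passed at an adjusted p under 0.05, and a log2 fold change of at least 2 in size was required for the 4-fold rule. The test was run beforehand on simulated counts with known fold changes, drawn from the means of these libraries. Standard errors were taken as the log2 fold change over the root of the F statistic, and 95% intervals from a t distribution with 10 residual degrees of freedom. MOR-sired libraries were fitted alone in the same way, and an interaction of region and sire was fitted over all 24 libraries. Library totals of 21.86 to 41.52 (in units of 1e6 counts) limit the precision of low genes.

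The genes named are the 6 markers, the 15 largest differences and the 5 most abundant 4-fold genes in each direction, up to 6 passing members and up to 3 opposed to the median of each list, and every member of lists of 8 or fewer. Other list members, such as those that did not pass, were named after their values were seen. The members and the 52 lists (733 genes, 669 tested) were chosen with earlier results of these data known. Alternatives were RLE, upper-quartile and unscaled totals, no filter, DESeq2 1.42.0, voom with quality weights in limma 3.58.1, all 24 libraries, replicate number as a block, protein-coding genes only, leaving out each library and, added after the data were seen, leaving out ribosomal RNA genes or the libraries with Xist. Promoter sequences are those of RefSeq for assembly GRCr8, which may not be the build the authors used. Results for some genes are not reported here.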

Additional observations from a re-analysis of the deposited data

Results flagged for a closer look

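A library was set apart where its gap to the nearest other library of its group, over the range of the group, was above Dixon's 95% critical value. Of 308 groups of values (154 genes in 2 regions) 30 gave such a library, 9.74% of them, while chance alone gives about 1 in 20. VTA 2 was the library in 13 of the 30, each time as the highest VTA library. These were the cortical and forebrain genes Slc17a7 (80.7 CPM), Tbr1 (16.3 CPM), Dlx5 (0.872 CPM), Meis2 (10.9 CPM), Camk2a (199 CPM), Adcy1 (34.0 CPM), Chrm1 (7.74 CPM), Gabrd (6.54 CPM), Kcnj4 (10.2 CPM) and Tac3 (7.16 CPM), and the immediate early genes Arc (10.6 CPM), Egr3 (10.6 CPM) and Egr4 (4.36 CPM).

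In VTA 5 the sex-linked Xist was high (79.2 CPM) and Ddx3y low (0.0759 CPM), and in VTA 4 Gng7 was low (13.6 CPM). Among NAC libraries, NAC 7 was highest in Col1a2 (12.4 CPM), Ptgds (1006 CPM), Gchfr (7.68 CPM), Foxa2 (0.163 CPM) and Lmx1b (0.0406 CPM). NAC 2 was highest in Egr1 (218 CPM), Gata3 (0.370 CPM) and Xist (0.222 CPM), and NAC 4 in Pitx3 (0.759 CPM) and Pax5 (0.289 CPM). NAC 3 was highest in Oprd1 (16.6 CPM) and lowest in Tph2 (0.470 CPM), NAC 5 was highest in Pts (15.6 CPM), and NAC 6 in Pde8a (16.9 CPM).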

How the results depend on the processing

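The number of genes passing stayed between 10582 (protein-coding genes only) and 12553 (no filter), and the number at 4-fold between 944 and 1444 under every alternative except no filter on low counts, which tested 31192 genes and gave 1946 at 4-fold, 862 of them higher in VTA. Leaving out 1 library gave 11434 to 11851 passing genes (5569 to 5783 higher and 5846 to 6068 lower in VTA) and 1190 to 1323 at 4-fold (449 to 483 higher and 735 to 840 lower), and between 1187 and 1219 of the 1230 genes passed in these fits. Upper-quartile scaling moved the share of calls that were higher in VTA from 48.8% to 62%, and library totals alone to 57.3%, with the median of all genes at 0.165 and 0.112 in place of 0.0216 (log2). With replicate number as a block 11094 genes passed and 1208 of the 1230 genes at 4-fold still did; same-numbered NAC and VTA libraries had correlations of deviations from −0.000824 to 0.0674, 0 of 5 pairs were over 0.1, and 2 of 5 VTA libraries correlated best with their own number, so the numbers were not taken to pair the libraries.

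The MOR-sired comparison passed 10086 to 11228 genes when 1 library was left out. For the difference between the sires' region effects, DESeq2 passed 93 genes (smallest adjusted p = 1.13e-11) and a fit without the 4 VTA libraries with Xist passed 7 (smallest adjusted p = 7.87e-05), against 0 in the fit with all 24; the cause was not tested. Leaving out 1 library gave 0 genes each time, with smallest adjusted p from 0.0502 to 0.81. Over 348 genes and all alternatives, 7515 of 7656 values kept their side of the threshold, 104 lost the call and 37 gained it. A change of direction with a pass in the main or the alternative fit occurred in 0 values. Changes of direction without a pass in either fit, as in Sox9 and Grm8, are counted among the 7515. Low genes in one region rest on few counts, which limits the folds of the midbrain factors.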
